A study of Mus musculus with 9 samples.

Results

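The comparison set hindbrains of 2 Zfp423 mutants, as 1 group, against hindbrains with the full-length protein, on embryonic day 9.5 of the mouse. It asked which transcripts differed from wild type on the average of the 2 mutants, so a change in 1 of them can carry a call. Its members were all 9 libraries of the series: the 6 mutant libraries, weighted equally per allele, and the 3 wild-type (wt) libraries. The d9-20 mutants (3 libraries) were labelled as lacking exon 4 and zinc fingers 9 to 20 of the protein. The d28-30 mutants (3 libraries) were labelled as lacking exons 6 and 7, and with them zinc fingers 28 to 30. The wt libraries (3) came from littermates, and the labels do not say of which mutant line. All embryos were C57BL/6N and untreated. Neither the number of mutant copies an embryo carried nor the number of embryos behind a library was stated, so the spread behind each p-value is that of these samples. The contrast was tested in 15695 genes, those of 48587 in the table that passed a filter on low counts.

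ZFP423 is a nuclear protein with many zinc fingers, grouped into clusters that contact DNA or partner proteins. It is known for binding SMAD proteins downstream of bone morphogenetic protein (BMP) signals and for binding early B-cell factors (EBF), transcription factors that it can inhibit. In the mouse its loss disturbs the midline cerebellum and the hindbrain choroid plexus, and in human patients changes in the gene have been linked to Joubert syndrome, a disorder of the cilium. The dorsal hindbrain of this stage is organised by the roof plate, a strip of cells along the dorsal midline that secretes BMP and WNT ligands and later gives rise to choroid plexus epithelium, whose cells carry many cilia.

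Total counts per library were 19856714 to 21160036 in d9-20, 16903382 to 24216412 in d28-30 and 19217956 to 21657749 in wt, so 3 counts correspond to 0.124 to 0.177 CPM, the count scaled to library size. Genes of rhombomeres and the Hox clusters, which mark the hindbrain, summed to 609 to 705 CPM in mutant and 596 to 678 CPM in wt libraries. Forebrain genes summed to 23.0 to 50.6 CPM in mutants and 31.1 to 32.0 CPM in wt. The d28-30 replicate 2 library stood apart: set against each of the 8 remaining libraries its chi-square per degree of freedom was 25.02 to 58.8, and that of all pairs without it was at most 17.1. Its mitochondrial share of counts was 2.07%, against 0.904% to 1.42% in the other libraries. Y-linked genes summed to 0.0504 CPM in d9-20 replicate 1 and 0.0592 CPM in d28-30 replicate 1, against 115 to 192 CPM in the other 4 mutant libraries and 63.2 to 206 CPM in wt, so sex was not balanced. Xist, the RNA of the inactive X chromosome, was at 1505 to 1638 CPM in these replicate 1 libraries. The replicate 2 library of each genotype carried Xist at 580 to 1257 CPM together with Y-linked genes at 63.2 to 120 CPM, and replicate 3 of each had Y-linked genes with Xist below 1 CPM. By these values the 3 libraries of each mutant were not repeats of 1 RNA sample, and neither was wt replicate 2 a repeat of another wt library. The values do not separate wt replicates 1 and 3, where Xist was at 3.46 and 0.208 CPM. Hemoglobin and other erythroid genes took 0.368% to 0.655% of counts in mutants and 0.412% to 0.801% in wt. The part of sex and of blood in the results below was not tested beyond the fits that carry them as covariates.

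In the mutants 40 genes differed from wt (0.255% of genes tested) at an adjusted p below 0.05 in edgeR's quasi-likelihood test with Benjamini-Hochberg adjustment. Of these, 27 were higher (0.172%) and 13 lower (0.0828%). Among the genes that rose were Coch, coding for a secreted protein, the BMP antagonist Grem1 and the pro-apoptotic Pmaip1. Among those that fell were Gmnc and Ccno, regulators of multiciliated cells, and the roof plate genes Msx2 and Bmp6. In all 40 genes the 6 mutant libraries lay on 1 side of the 3 wt libraries, as they did in 513 of all genes tested (3.27%), above wt in 274 (1.75%) and below in 239 (1.52%). The median log2 fold change of all genes was -0.0016. The gene lists below were chosen with earlier results of these data known, so the number of calls in a list depends partly on that choice and was not tested. When d28-30 replicate 2 was left out, 75 genes passed, among them all 40. Leaving out any other mutant library lowered the count to between 21 and 35, and leaving out wt replicate 1, 2 or 3 lowered it to 15, 16 and 14.

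**Figure D1:**
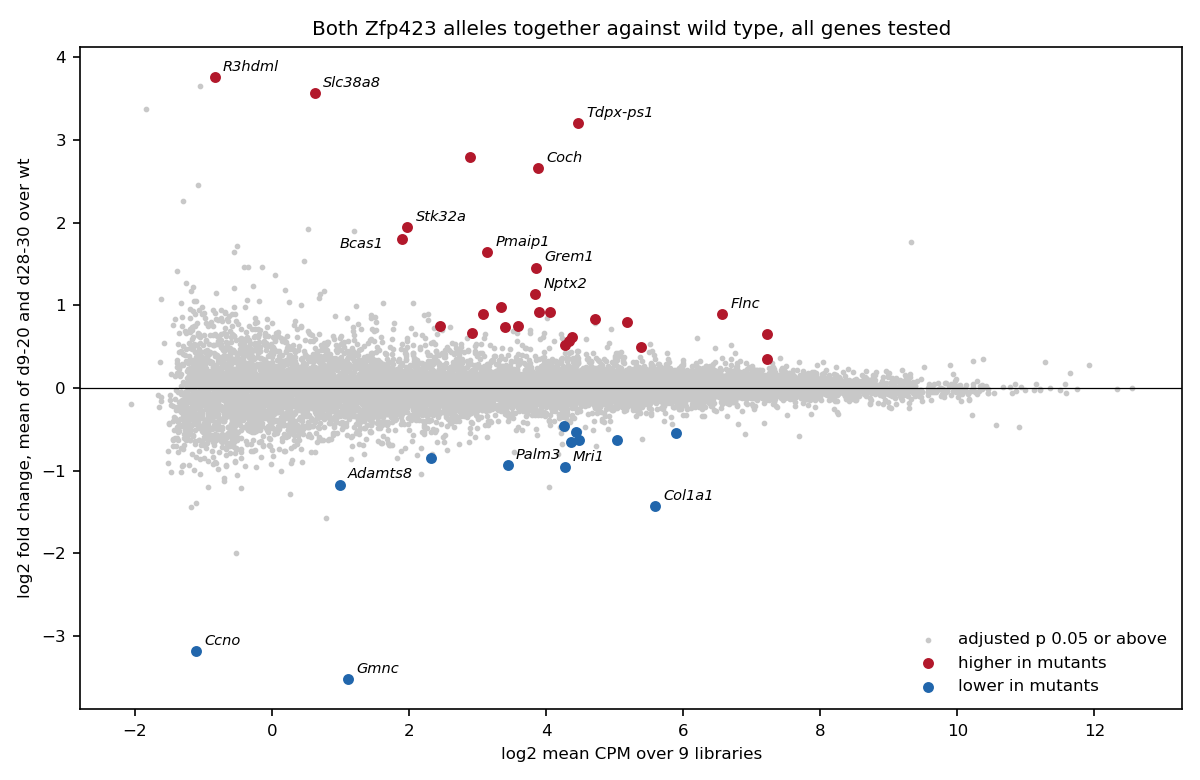
Log2 fold change of both alleles together over wt (y axis) against log2 of the mean CPM over 9 libraries (x axis), 1 point per gene tested. Coloured points are the 27 genes higher and 13 genes lower in mutants at an adjusted p below 0.05. Called genes past a log2 fold change of 1 in size carry names where the text gives them, with Flnc, Mri1 and Palm3 added, and the large changes are few and stand out from the cloud of genes that did not pass.

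Zfp423 itself was at 155, 156 and 194 CPM in d9-20 libraries, 159, 172 and 183 CPM in d28-30 libraries and 101, 105 and 118 CPM in wt libraries. Every mutant library was above every wt library. The combined log2 fold change was 0.65 ± 0.09 (SE; 1.57-fold, adjusted p = 0.0137), and the alleles differed by -0.02 ± 0.10 (adjusted p = 0.937). The call was lost without wt replicate 1 or 2 and with an erythroid covariate (adjusted p up to 0.105). Counts are per gene, not per exon, so they do not show the deleted exons themselves. The gene lies on the minus strand at chr8:87661810-87959595 (GRCm38). In the transcript Zfp423-202 of GENCODE M21, exon 4 at chr8:87780199-87783413 has 3215 of 4907 nt (65.5%). The d9-20 count was close to that of d28-30, whose labelled deletion is much shorter, and was above wt. The bases that are missing were not given, and where in the gene the reads fell was not tested. Exons 6 (chr8:87687956-87688087) and 7 (chr8:87686429-87686544) have 248 nt together (5.05%). They are shown, 5′ to 3′ on the minus strand, since their loss defines the d28-30 allele.
exon 6: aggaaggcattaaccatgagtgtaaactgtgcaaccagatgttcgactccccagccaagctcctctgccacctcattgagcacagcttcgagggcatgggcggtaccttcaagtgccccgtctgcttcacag
exon 7: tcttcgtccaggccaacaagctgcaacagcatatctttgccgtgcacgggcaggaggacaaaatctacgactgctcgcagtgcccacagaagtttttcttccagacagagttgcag
Of 6 tested genes of the list of ZFP423 relatives and EBF factors, 1 rose (Zfp423) and 0 fell. Over all genes tested, 0.172% rose and 0.0828% fell. All 6 of the list had a positive log2 fold change, with a median of 0.12. Ebf4 was at 8.29 to 11.5 CPM in mutants and 5.98 to 7.87 CPM in wt, with no overlap, but did not pass (0.51 ± 0.13, adjusted p = 0.214), except in DESeq2 (adjusted p = 0.0464, with 0.0464 to 0.599 over the 17 other settings). The paralog Zfp521 was at 104 to 124 CPM in mutants and 100.1 to 108 CPM in wt (0.13 ± 0.06, adjusted p = 0.911).

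Regulators of multiciliated cells held the largest falls among the 13 genes that fell. Gmnc codes for GEMC1, a geminin-related protein at the top of the program by which cells make many motile cilia. It was at 0.506, 0.605 and 0.752 CPM in d9-20, 0.236, 0.421 and 0.398 CPM in d28-30 and 7.71, 5.07 and 3.70 CPM in wt. The lowest wt library was above the highest mutant library by a wide margin. Gmnc fell by 3.52 ± 0.26 on the log2 scale (adjusted p = 0.000168), and the call held with each library left out and in every other setting tried (adjusted p up to 0.00179). In counts, 61 over 6 mutant libraries against 341 over 3 wt libraries gave a ratio of 0.0875 after scaling for depth, with an exact 95% interval of 0.0655 to 0.115, which covers counting error only. Gmnc is on chromosome 16 (chr16:26913553-26991652).

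Ccno, a cyclin-like gene needed for the production of centrioles in multiciliated cells, was at 0.152, 0.0505 and 0.329 CPM in d9-20, 0.0589, 0.126 and 0.0442 CPM in d28-30 and 1.52, 0.553 and 1.34 CPM in wt. The groups did not overlap, on few reads: 1 to 7 counts in a mutant library and 11 to 33 in a wt library. The log2 fold change was -3.19 ± 0.48 (adjusted p = 0.0213), and the ratio of summed counts was 0.112 (exact 95% interval 0.0606 to 0.195). This call was lost without any 1 of d9-20 replicates 1 and 2, d28-30 replicates 1 and 3 and wt replicates 1 and 3, and with a Y-linked or an erythroid covariate (adjusted p up to 0.178). Of 14 tested genes of the list, 0 rose and 2 fell, with a median of -0.01, while 0.172% of all genes tested rose and 0.0828% fell. Trp73, which codes for a p53 relative needed for multiciliated cells, did not pass (log2 fold change -1.21 ± 0.37, adjusted p = 0.420). It had 64 counts over the mutant libraries and 74 over the wt libraries, a ratio of 0.423 after scaling for depth. The exact 95% interval of 0.298 to 0.599 covers counting error only. Foxj1, the main activator of motile cilium genes, was at 7.24 to 15.8 CPM in mutants and 7.79 to 11.2 CPM in wt (0.27 ± 0.22, adjusted p = 0.958).

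Genes for the parts of cilia themselves did not pass. Of 16 tested motile axoneme genes, 0 passed in either direction, 3 had a positive and 13 a negative log2 fold change, and the median was -0.06. Drc1, a subunit of the complex that coordinates axonemal dyneins, had a log2 fold change of -0.74 ± 0.29 (adjusted p = 0.722), Tekt2 had -0.47 ± 0.26 (adjusted p = 0.958) and Ccdc40 had -0.20 ± 0.07 (adjusted p = 0.497). Of 25 genes of the primary cilium and Joubert syndrome, 0 passed and the median was 0.01. None of the 13 choroid plexus genes tested passed either, with a median of -0.03. The member with the highest log2 fold change was the X-linked Cldn2, coding for a tight junction protein (0.50 ± 0.25, adjusted p = 0.923). It had 163 counts over the mutant libraries and 56 over the wt libraries, a ratio of 1.42 after scaling for depth. The exact 95% interval of 1.05 to 1.97 covers counting error only, and the mutant and wt libraries overlapped. Slc4a5, a bicarbonate transporter gene, had -0.44 ± 0.18 (adjusted p = 0.788) and Cldn1 -0.38 ± 0.16 (adjusted p = 0.796). Ttr, the abundant product of mature choroid plexus, was below the count filter.

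Among 16 genes of the roof plate and dorsal midline, 1 rose and 2 fell, 13 had a negative log2 fold change and the median was -0.07. Of all genes tested, 0.172% rose and 0.0828% fell. Msx2, a homeobox gene that BMP signals induce in dorsal midline cells, was at 16.5, 17.8 and 18.5 CPM in d9-20, 15.3, 17.5 and 18.6 CPM in d28-30 and 26.1, 27.5 and 28.3 CPM in wt. The 6 mutant libraries lay close together, all below wt. Msx2 fell by 0.65 ± 0.08 (adjusted p = 0.00823), and the call was lost without wt replicate 2 or 3 (adjusted p up to 0.0604).

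Bmp6, a ligand gene of the roof plate, was at 3.34, 3.48 and 4.51 CPM in d9-20, 4.30, 3.96 and 3.98 CPM in d28-30 and 6.84, 5.83 and 8.58 CPM in wt. It was below wt in all 6 mutant libraries and fell by 0.85 ± 0.15 (adjusted p = 0.0475). Wnt3, coding for a WNT ligand, moved the other way, with 14.8, 13.2 and 21.4 CPM in d9-20, 22.9, 21.8 and 24.3 CPM in d28-30 and 10.01, 9.39 and 11.5 CPM in wt. Wnt3 rose by 0.92 ± 0.15 (adjusted p = 0.0348). Both calls were near the threshold: that of Bmp6 held when d9-20 replicate 3 or d28-30 replicate 2 was left out and was lost with every other omission (adjusted p up to 0.267), and that of Wnt3 without d9-20 replicate 1, d28-30 replicates 1 and 3 or any wt library (adjusted p up to 0.243). Both were also lost with a Y-linked or an erythroid covariate, Bmp6 in limma-voom and Wnt3 in a fit of 2 groups. Because these are whole hindbrains, fewer cells of a type and less RNA per cell cannot be told apart.

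The other roof plate genes did not pass. Wnt1 was at 8.71 to 19.8 CPM in mutants and 20.2 to 27.7 CPM in wt (-0.80 ± 0.15, adjusted p = 0.0690). Lmx1a, which codes for a homeodomain factor required for the roof plate, had -0.47 ± 0.10 (adjusted p = 0.150), and Rspo1, a secreted enhancer of WNT signals, had -0.68 ± 0.17 (adjusted p = 0.247). Other BMP ligand genes of the list had small differences: Bmp7 had -0.02 ± 0.07 (adjusted p = 0.981), Bmp4 -0.06 ± 0.13 (adjusted p = 0.972) and Gdf7 -0.13 ± 0.24 (adjusted p = 0.962). Of 16 dorsal progenitor and rhombic lip genes 0 passed, 12 had a negative log2 fold change and the median was -0.05 (-0.13 in d9-20, -0.01 in d28-30). Olig3, a marker of the dorsal progenitors next to the roof plate, was at 18.6 to 26.4 CPM in mutants and 30.4 to 33.2 CPM in wt, with no overlap (-0.51 ± 0.11, adjusted p = 0.105). It passed in 4 of the 17 other settings, which were DESeq2, no filter on low counts, the replicate block and the fit without d9-20 replicate 3 (adjusted p of 0.00206 to 0.482 over all of them). Barhl1, which marks neurons from the rhombic lip, had -0.67 ± 0.33 (adjusted p = 0.923), and Zic4, a dorsal zinc finger gene, had -0.27 ± 0.17 (adjusted p = 0.958).

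Of 18 tested BMP response and antagonist genes, 1 rose and 0 fell (0.172% and 0.0828% of all genes tested), with a median of -0.10. The gene that rose was Grem1, which codes for gremlin, a secreted protein that binds and blocks BMP ligands. It was at 18.7, 21.9 and 15.6 CPM in d9-20, 15.4, 22.1 and 16.6 CPM in d28-30 and 5.83, 8.64 and 5.65 CPM in wt. The lowest mutant library was well above the highest wt library. Grem1 rose by 1.46 ± 0.18 (2.74-fold, adjusted p = 0.00776), and the call was lost without wt replicate 1 or 3 (adjusted p up to 0.0854). The antagonist genes Nog (-0.23 ± 0.19, adjusted p = 0.958) and Chrd (0.02 ± 0.17, adjusted p = 0.992) did not pass. Id1, a direct target of SMAD signalling, was at 54.6 to 82.4 CPM in mutants and 77.4 to 101 CPM in wt (-0.34 ± 0.11, adjusted p = 0.514), and Bmper, a modulator of BMP ligands, had 0.52 ± 0.18 (adjusted p = 0.574).

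Of 13 WNT response genes 0 passed, with a median of 0.05. Notum, coding for an enzyme that inactivates WNT ligands and induced by WNT signals, was at 13.5 to 17.8 CPM in mutants and 8.84 to 10.7 CPM in wt. It did not overlap between the groups and lay just outside the threshold (0.70 ± 0.12, adjusted p = 0.0505). It passed in 7 of the 17 other settings, among them the fit without d28-30 replicate 2, with adjusted p of 0.000114 to 0.318 over all of them. Nkd1, an inhibitor of the pathway, had -0.28 ± 0.08 (adjusted p = 0.348) and passed with the replicate block alone (adjusted p = 0.0481, the lowest of the 17 other settings), and Ccnd1, coding for cyclin D1, had 0.13 ± 0.06 (adjusted p = 0.797).

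**Figure D2:**
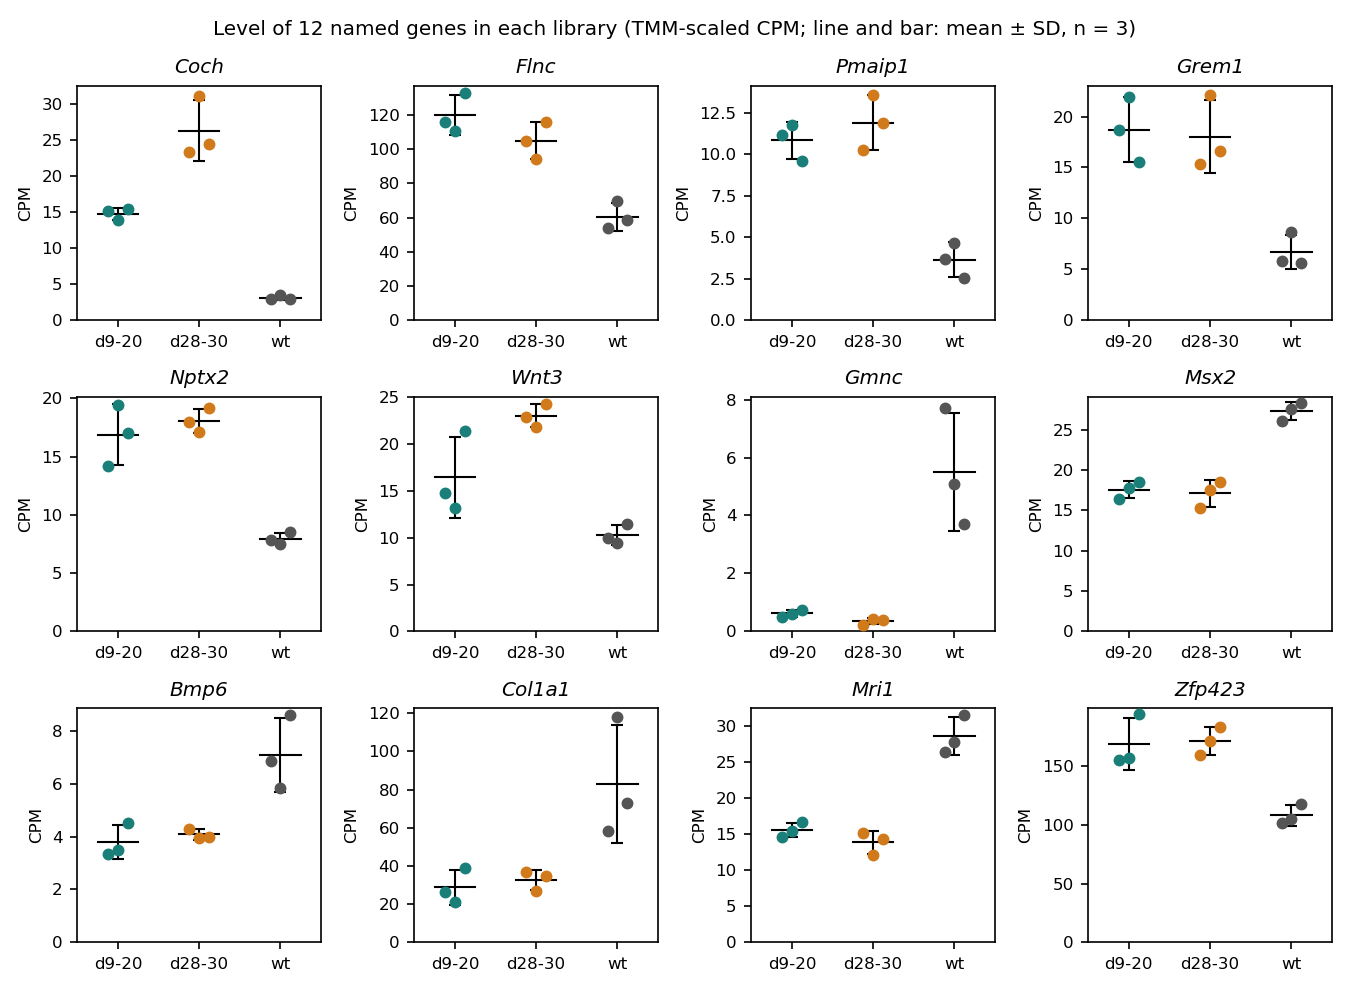
Level in CPM (y axis, from 0) of 12 named genes in each library (points), with the mean and SD of 3 libraries (line and bars), for d9-20, d28-30 and wt (x axis). In each of the 12 genes the mutant points do not overlap the wt points, as in all 40 called genes and in 3.27% of genes tested. The rule that named the largest changes required this. In Coch the gap is larger than the spread within any genotype.

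Coch codes for cochlin, an extracellular matrix protein best known from the inner ear. It was at 15.1, 13.8 and 15.4 CPM in d9-20, 23.3, 31.0 and 24.5 CPM in d28-30 and 2.98, 3.47 and 2.93 CPM in wt. Both mutants were far above wt, with d28-30 above d9-20. Coch rose by 2.65 ± 0.13 (6.30-fold, adjusted p = 4.2e-06), while the alleles differed by -0.83 ± 0.12 (adjusted p = 0.121). Otic vesicle genes, which mark the primordium of the inner ear beside the hindbrain, gave 0 calls among 13 tested, and summed to 298 to 326 CPM in mutants and 301 to 310 CPM in wt. The gene lies on the plus strand at chr12:51593341-51605771.

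The call of Coch held in all 17 other settings, with adjusted p up to 0.00251. Pla2g7, coding for a secreted phospholipase that degrades platelet-activating factor, rose by 0.91 ± 0.11 (16.2 to 20.5 CPM in mutants, 8.43 to 10.4 CPM in wt, adjusted p = 0.00535).

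Col1a1, coding for a chain of type I collagen, went the other way, with 26.5, 21.0 and 39.0 CPM in d9-20, 36.9, 26.9 and 34.7 CPM in d28-30 and 58.3, 118 and 73.0 CPM in wt. The wt libraries were spread widely, with replicate 2 the highest. Col1a1 fell by 1.43 ± 0.22 (adjusted p = 0.0252), and the call was lost without any 1 of d9-20 replicates 1 and 2, d28-30 replicates 1 and 3 and wt replicates 2 and 3, and with a Y-linked covariate (adjusted p up to 0.113). Col1a2, coding for the partner chain, was at 83.1 to 125 CPM in mutants and 148 to 159 CPM in wt (-0.56 ± 0.11, adjusted p = 0.0837). Of 17 cranial mesenchyme genes, which include both, 0 rose and 1 fell (0.172% and 0.0828% of all genes tested), and the median was 0.04. The list summed to 946 to 1162 CPM in mutants and 1053 to 1176 CPM in wt. Adamts8, coding for a secreted metalloprotease, fell by 1.17 ± 0.18 (1.27 to 1.68 CPM in mutants, 2.36 to 3.70 CPM in wt, adjusted p = 0.0243). It was lost without any 1 of the d9-20 libraries, d28-30 replicate 1 and wt replicates 1 and 3, and with a Y-linked or an erythroid covariate (adjusted p up to 0.201).

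Pmaip1 codes for NOXA, a BH3-only protein that promotes apoptosis and a target of p53. It was at 11.1, 11.8 and 9.59 CPM in d9-20, 10.3, 13.6 and 11.9 CPM in d28-30 and 3.67, 4.67 and 2.57 CPM in wt. Both mutants were at similar levels, above all wt libraries. Pmaip1 rose by 1.64 ± 0.18 (3.12-fold, adjusted p = 0.00329), and the call held in all 17 other settings (adjusted p up to 0.0353). It was the 1 gene that rose of 20 tested p53 targets (0 fell, median 0.03) and of 15 of the BCL2 family (0 fell, median -0.08), since it is a member of both lists. Over all genes tested, 0.172% rose and 0.0828% fell. The median of the BCL2 family was 0.07 in d9-20 and -0.09 in d28-30. Cdkn1a, the p53 target that codes for the cell cycle inhibitor p21, was at 8.73 to 12.3 CPM in mutants and 9.34 to 11.2 CPM in wt (0.02 ± 0.12, adjusted p = 0.989). The pro-apoptotic genes Bax (-0.08 ± 0.11, adjusted p = 0.958) and Bbc3 (0.05 ± 0.24, adjusted p = 0.984) did not pass. None of 16 genes of the DNA damage response (median -0.01) and of 18 cell cycle genes (median -0.02) passed.

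Of 20 synaptic genes 2 rose and 0 fell, with a median of -0.04. By allele, the median was -0.12 in d9-20 and 0.13 in d28-30. Of all genes tested, 0.172% rose and 0.0828% fell, and this list too was chosen with earlier results known. Nptx2, coding for a secreted pentraxin that clusters AMPA receptors, was at 14.2, 19.4 and 17.1 CPM in d9-20, 17.97, 17.1 and 19.2 CPM in d28-30 and 7.85, 7.53 and 8.53 CPM in wt. The groups stood well apart, and Nptx2 rose by 1.13 ± 0.11 (2.19-fold, adjusted p = 0.00202) and passed in all 17 other settings (adjusted p up to 0.0256). Rimbp2, coding for a scaffold of the presynaptic release site, rose by 0.89 ± 0.11 (8.54 to 11.6 CPM in mutants, 4.94 to 6.06 CPM in wt, adjusted p = 0.00757), a call lost without wt replicate 2 or 3 (adjusted p up to 0.0601). Of 21 newborn neuron genes 0 passed, and the median was -0.01 for both alleles together, -0.23 for d9-20 and 0.27 for d28-30. Of 17 neural progenitor genes 0 passed, with a median of -0.05. Bcas1, known as a marker of oligodendrocytes that have just begun to form myelin, rose by 1.80 ± 0.25 (3.41 to 6.81 CPM in mutants, 0.925 to 2.01 CPM in wt, adjusted p = 0.0138), a call lost without wt replicate 1 or 3 and with a Y-linked or an erythroid covariate (adjusted p up to 0.117). Hap1, coding for a partner of huntingtin, fell by 0.62 ± 0.10 (22.9 to 30.6 CPM in mutants, 39.9 to 47.2 CPM in wt, adjusted p = 0.0288). Its call held when d9-20 replicate 3 or d28-30 replicate 2 was left out and was lost with every other omission and with a Y-linked or an erythroid covariate (adjusted p up to 0.185).

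Of 12 tested genes of the muscle cytoskeleton, 2 rose and 0 fell, with a median of -0.06. By allele, the median was 0.20 in d9-20 and -0.15 in d28-30. Of all genes tested, 0.172% rose and 0.0828% fell, and this list was chosen with earlier results of these data known. Flnc, coding for the actin crosslinker filamin C, was at 116, 111 and 133 CPM in d9-20, 105, 94.1 and 116 CPM in d28-30 and 53.8, 69.4 and 58.3 CPM in wt. It was above wt in all 6 mutant libraries, rose by 0.89 ± 0.10 (1.85-fold, adjusted p = 0.00450) and passed in all 17 other settings (adjusted p up to 0.0378). Des, coding for desmin, the intermediate filament of muscle, was at 14.6, 14.2 and 15.9 CPM in d9-20, 9.90, 8.38 and 10.4 CPM in d28-30 and 5.14, 7.03 and 6.07 CPM in wt. It rose by 0.97 ± 0.12 (adjusted p = 0.00776), and was lost without wt replicate 1 or 3 and in a fit of 2 groups (adjusted p up to 0.125). The muscle regulators Myod1, Myog and Myf5 were below the count filter, and the list summed to 447 to 539 CPM in mutants and 435 to 508 CPM in wt. Stk32a, coding for a kinase, was at 2.62 to 7.41 CPM in mutants and 1.06 to 1.49 CPM in wt and rose by 1.94 ± 0.21 (adjusted p = 0.00346), a call lost in a fit of 2 groups (adjusted p = 0.0656, the highest of 17 settings).

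**Figure D3:**
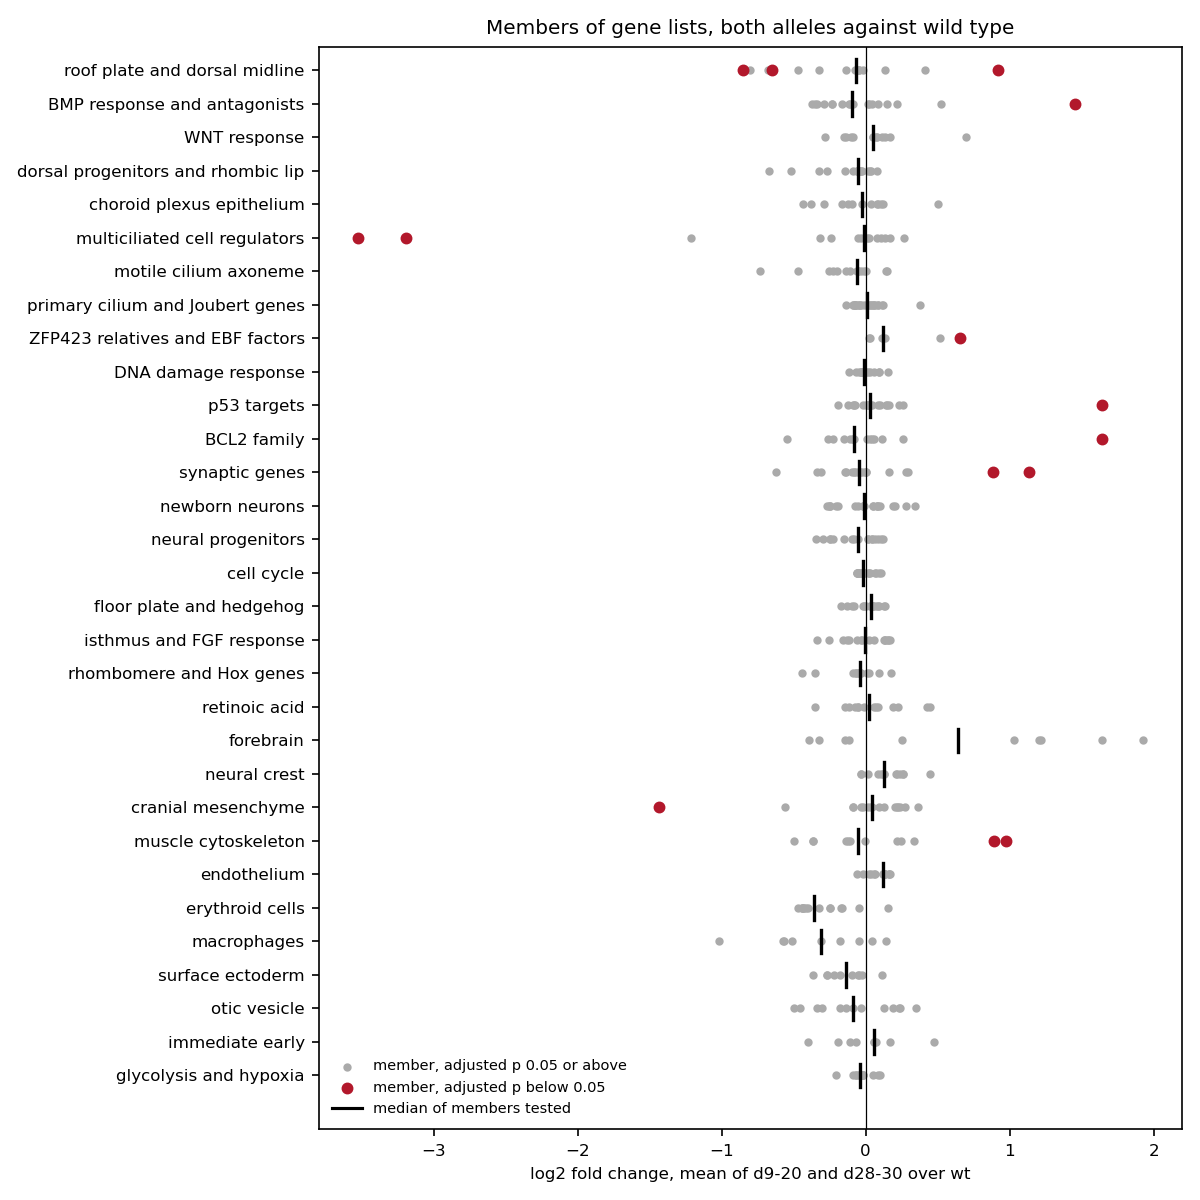
Log2 fold change of both alleles together over wt (x axis) of each tested member (point) of 31 gene lists (y axis), with the median of each list as a bar. Red points are members at an adjusted p below 0.05, at most 3 in a list, and the medians lie close to 0 except in the forebrain, erythroid and macrophage lists.

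The called genes were also counted by their distance from Zfp423. Within 5 Mb of it on chromosome 8, 105 genes were tested and 5 were called (4.76%), all lower in mutants. On the whole of chromosome 8 without Zfp423, 8 of 783 were called (1.02%), and on other chromosomes 30 of 14455 (0.208%). The shares were not tested against each other.

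Mri1, coding for an enzyme of the methionine salvage pathway, lies 3.40 Mb from Zfp423. It was at 14.6, 15.4 and 16.6 CPM in d9-20, 15.1, 12.1 and 14.3 CPM in d28-30 and 26.4, 27.8 and 31.5 CPM in wt. The mutants were all well below wt. Mri1 fell by 0.96 ± 0.09 (adjusted p = 0.00194) and passed in all 17 other settings (adjusted p up to 0.0154). Palm3, coding for a membrane-binding protein of the paralemmin family, lies 3.63 Mb away and fell by 0.93 ± 0.14 (6.36 to 9.72 CPM in mutants, 14.3 to 18.5 CPM in wt, adjusted p = 0.0213). Smaller falls were found for Scoc, 4.20 Mb away (-0.62 ± 0.11, adjusted p = 0.0486), and for Syce2, coding for a protein of the meiotic synaptonemal complex, 2.77 Mb away (-0.46 ± 0.07, adjusted p = 0.0271). The call of Palm3 was lost without d9-20 replicate 1 or 2, d28-30 replicate 3 or any wt library and with an erythroid covariate (adjusted p up to 0.139). The call of Scoc held when d28-30 replicate 2 or wt replicate 3 was left out and was lost with every other omission, in limma-voom, with a Y-linked covariate and in a fit of 2 groups (adjusted p up to 0.332). That of Syce2 held without d28-30 replicate 2 and was lost with every other omission and with a Y-linked or an erythroid covariate (adjusted p up to 0.177). The neighbours Cbln1 (0.31, adjusted p = 0.367), Brd7 (0.24, adjusted p = 0.306) and Nkd1, 0.562 Mb away (-0.28, adjusted p = 0.348), did not pass. Slc38a8, coding for an amino acid transporter, lies on the same chromosome, 31.5 Mb away. Slc38a8 had 272 counts in mutants and 11 in wt, a ratio of 12.1 (exact 95% interval 6.65 to 24.5), and rose by 3.57 ± 0.49 (adjusted p = 0.0138), a call lost without any 1 of the wt libraries and in limma-voom (adjusted p up to 0.114).

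**Figure D4:**
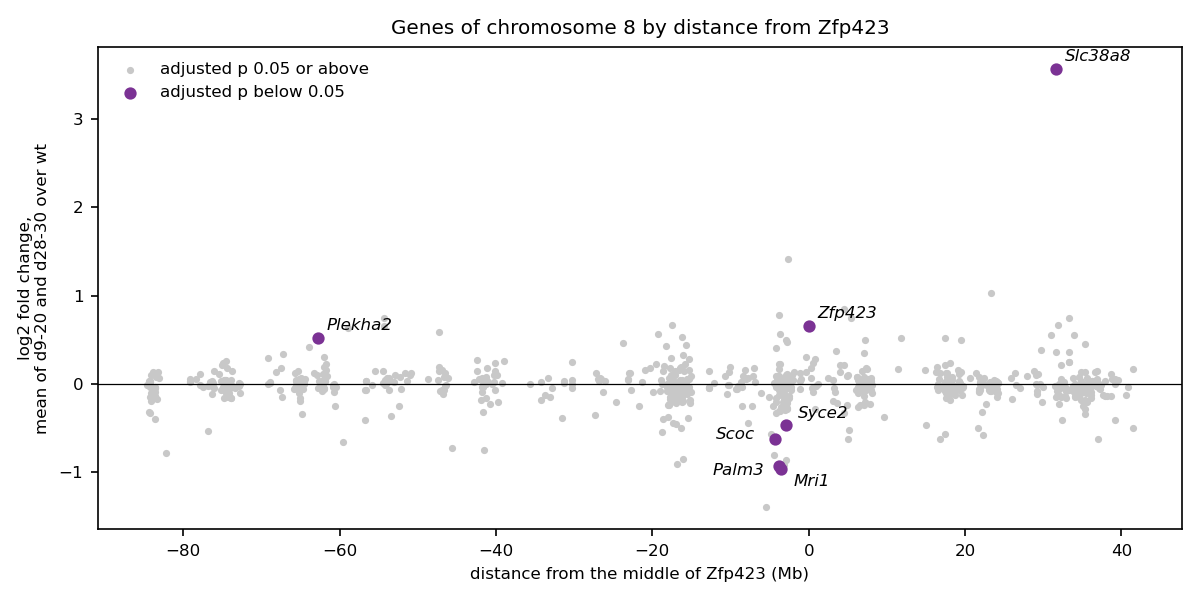
Log2 fold change of both alleles together over wt (y axis) of genes on chromosome 8 by their distance from the middle of Zfp423 in Mb (x axis). Purple points are genes at an adjusted p below 0.05 that the text names, and Mri1, Palm3, Scoc and Syce2, within 5 Mb of Zfp423, all lie below 0 and on the same side of it.

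The contrast averages the alleles, which share their wt libraries. Each allele alone gave fewer calls, 26 in d9-20 against wt (0.166%; 23 higher, 0.147%, and 3 lower, 0.0191%) and 25 in d28-30 against wt (0.159%; 21 higher, 0.134%, and 4 lower, 0.0255%). Between d9-20 and d28-30, 0 genes passed in edgeR (0%), with 1504 at an unadjusted p below 0.05, while 79 passed in DESeq2 and 0 in limma-voom. Some genes passed on the average of both alleles and in neither alone. Col1a1 had -1.52 in d9-20 (adjusted p = 0.0664) and -1.34 in d28-30 (adjusted p = 0.128), Bmp6 had -0.90 in d9-20 (adjusted p = 0.0879) and -0.80 in d28-30 (adjusted p = 0.163), and Ccno had -2.62 in d9-20 (adjusted p = 0.117) and -3.76 in d28-30 (adjusted p = 0.0546). Others leaned to 1 allele without a difference that passed. Stk32a had 1.42 in d9-20 and 2.47 in d28-30, a difference of -1.05 ± 0.20 (adjusted p = 0.236). Des had 1.30 in d9-20 and 0.65 in d28-30, a difference of 0.65 ± 0.13 (adjusted p = 0.236), and Wnt3 had 0.68 in d9-20 and 1.16 in d28-30. A difference that misses the threshold does not show that the alleles act alike.

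**Figure D5:**
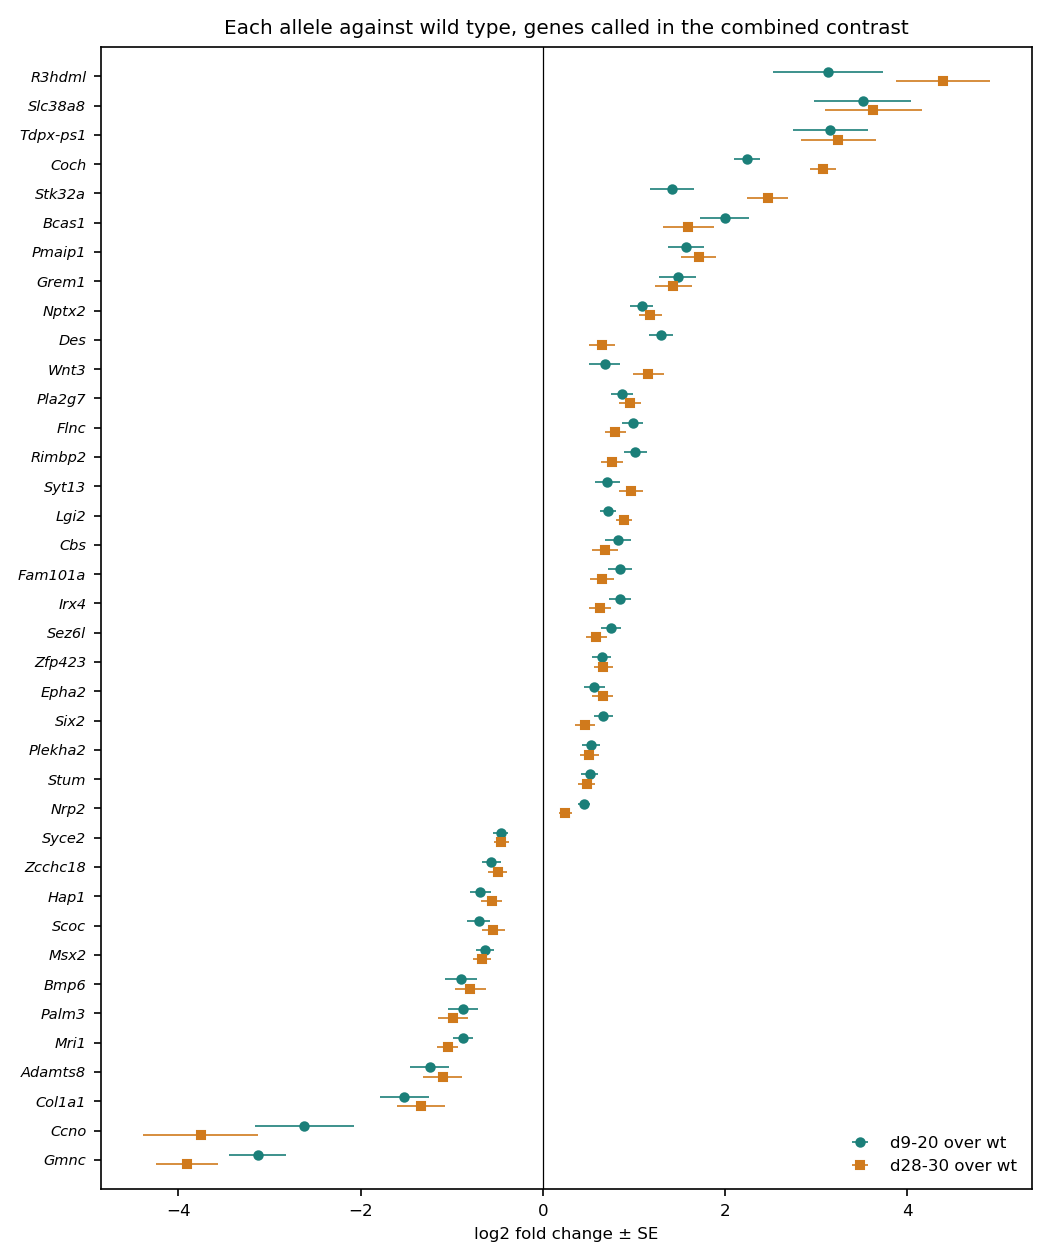
Log2 fold change ± SE over wt (x axis) of each allele, d9-20 (circles) and d28-30 (squares), for the genes of the combined contrast given in the text (y axis), which share the 3 wt libraries. The distance between the alleles is large beside their SE in a few genes, such as Coch, Stk32a and Des, none of which passed between the alleles.

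EBF factors are known to bind the core CCCNNGGG, and ZFP423 an inverted repeat of GCACCC whose centre contains that core. In the 300 bases around a start site given by RefSeq (250 before to 50 after, GRCm38.p6), searched on both strands, CCCNNGGG was found for 9 of the 28 called genes with a promoter in the table (32.1%) and 21.8% of 11082 tested genes. The longer repeat (CACCC, any 2 bases, GGGTG) was found in 0 of the 28 and in 0.144% of tested genes. The single GCACCC was found in 4 of the 28 (14.3%) and in 22.2% of tested genes. These are matches of letters and were not tested. The promoters of 3 genes with large changes are shown 5′ to 3′ on the strand of the gene, with matches in capitals. Coch (chr12:51593091-51593390, plus strand) has 2 overlapping core matches, which begin 136 and 135 bases before the start site. Grem1 (chr2:113758599-113758898, minus strand) has a core match 241 bases before it and a GCACCC match, read on the other strand as GGGTGC, 140 bases before it. Gmnc (chr16:26991603-26991902, minus strand) has no match to these letters in this window. Another Gmnc window (chr16:26968196-26968495) and that of Msx2, which are not shown, have no match either. G and C make up 73.7% of the Coch window, 70.7% of that of Grem1 and 40.7% of the Gmnc window shown. The part of base content in the matches was not tested.
Coch: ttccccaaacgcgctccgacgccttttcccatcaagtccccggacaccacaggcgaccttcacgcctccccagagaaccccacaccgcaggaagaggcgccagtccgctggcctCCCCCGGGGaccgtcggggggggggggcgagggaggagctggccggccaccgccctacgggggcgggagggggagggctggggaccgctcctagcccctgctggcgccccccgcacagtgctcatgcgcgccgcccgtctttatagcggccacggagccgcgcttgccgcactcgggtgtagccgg
Grem1: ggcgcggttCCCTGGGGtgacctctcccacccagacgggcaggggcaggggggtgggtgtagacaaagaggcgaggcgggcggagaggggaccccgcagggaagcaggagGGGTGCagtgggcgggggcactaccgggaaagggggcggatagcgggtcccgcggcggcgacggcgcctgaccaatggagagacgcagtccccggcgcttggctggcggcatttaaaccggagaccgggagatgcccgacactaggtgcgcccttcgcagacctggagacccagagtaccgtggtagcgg
Gmnc: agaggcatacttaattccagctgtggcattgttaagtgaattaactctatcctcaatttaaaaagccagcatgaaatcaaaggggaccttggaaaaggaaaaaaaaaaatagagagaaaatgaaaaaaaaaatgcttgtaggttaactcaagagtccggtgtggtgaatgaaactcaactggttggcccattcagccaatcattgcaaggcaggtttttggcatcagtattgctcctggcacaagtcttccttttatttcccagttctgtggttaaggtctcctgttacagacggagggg

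Lists of other regions and cell types gave few or no calls. None passed of 18 floor plate and hedgehog genes (median 0.04), 16 isthmus genes (-0.00), 14 rhombomere and Hox genes (-0.04), 14 retinoic acid genes (0.02), 14 neural crest genes (0.13), 15 endothelial genes (0.12), 10 surface ectoderm genes (-0.14), 9 macrophage genes (-0.31), 9 immediate early genes (0.06) and 15 glycolysis genes (-0.04). Some of these medians differed between the alleles. In d9-20 and d28-30 they were 0.03 and -0.28 for surface ectoderm, -0.63 and -0.03 for macrophage and 0.07 and -0.12 for glycolysis genes. The neural crest list summed to 739 to 836 CPM in mutants and 683 to 734 CPM in wt. None of 14 erythroid genes passed, 13 of them had a negative log2 fold change and the median was -0.36. The forebrain list had the highest median, 0.64 over 10 tested genes, of which 0 passed. Its sum was 45.7 CPM in d9-20 replicate 3 and 50.6 CPM in d28-30 replicate 3, against 23.0 to 34.6 CPM in the other 4 mutant libraries and 31.1 to 32.0 CPM in wt.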

How the data were processed

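Total RNA (500 ng per sample) from hindbrains of embryonic day 9.5 was made into stranded TruSeq libraries and read as single 75-nt reads, per the labels' protocols. The authors deposited raw read counts by gene symbol, as whole numbers in 1 table. STAR 2.5.3a, featureCounts and limma on mm10 (GRCm38) are named in the submitters' processing notes. For the counting, neither annotation nor strand setting nor the handling of multiply matching reads is given in the sources used here, so reads of overlapping genes, antisense genes and near-identical copies can be split between them.

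All 9 libraries were fitted in R 4.3.3 with edgeR 4.0.16 (filterByExpr, TMM scaling, quasi-likelihood) with genotype as the only factor. The contrast was the mean of d9-20 and d28-30 minus wt. Benjamini-Hochberg adjustment ran over all 15695 genes with a threshold of 0.05, and every adjusted p comes from this fit unless another tool is named. Standard errors are the log2 fold change divided by the square root of F. CPM values of single genes are TMM-scaled, except those of Xist. Xist values and the sums over gene lists, Y-linked genes among them, are scaled to total counts alone. The sums include list genes below the count filter. Exact intervals were computed with SciPy 1.17.1 from counts summed over libraries. They leave out the variation between libraries and cover counting error only. Alternatives used DESeq2 1.42.0, limma-voom (limma 3.58.1), other filters, scalings and covariates, and each library left out in turn. Positions came from GENCODE M21, in which 46384 of 48587 symbols match exactly 1 gene.

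The members and the 32 gene lists were chosen with earlier results of these data known. The text names Zfp423, the 12 largest rises and 12 largest falls among called genes that averaged 1 CPM or more and separated mutant from wt libraries, up to 4 called members of each list, the 3 smallest p of 8 signalling, dorsal and cilium lists, and the nearest 6 called genes on the chromosome of Zfp423. Unnamed gene models, pseudogenes and genes of the X and Y chromosomes were left out of the largest changes and of the genes on the chromosome of Zfp423. List members were not filtered in this way, and Cldn2 is on the X chromosome. Any further gene was picked with its values in view. Some called genes that meet the rule are counted but not reported here. In simulated counts (15518 genes in the fit, 200 of them changed), the contrast recovered 80% of the 1.5-fold changes and 97% of the 2-fold changes, with 5.85% false calls. The changed genes were drawn from those with higher counts and changed alike in both alleles. Differences in sex or blood and a library that stands apart were not simulated. These rates therefore do not cover genes with few counts, such as Ccno. The square root of the common dispersion was 0.110. Replicates are named by the number in the title, and the library without a number is replicate 3.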

Additional observations from a re-analysis of the deposited data

How the results depend on the processing

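For both alleles together, 40 genes passed in the fit as reported, against 41 with median-ratio scaling, 37 in limma-voom and 37 in a fit of 2 groups of 6 and 3 libraries. The count was 117 in DESeq2, 113 without a filter on low counts, 19 with a Y-linked covariate and 24 with an erythroid covariate. The corresponding counts for d9-20 against wt were 122 in DESeq2, 148 without a filter, 13 with the Y-linked and 7 with the erythroid covariate. For d28-30 against wt they were 95 in DESeq2 and 98 without a filter, and between d9-20 and d28-30 they were 79 in DESeq2 and 133 without a filter. The share of calls that were higher was 67.5% as reported. It was 61.9% without a filter, 62.3% with a replicate block, 78.9% with the Y-linked and 75% with the erythroid covariate, and 57.1% (without d9-20 replicate 3) to 86.4% (without d9-20 replicate 2) with 1 library left out. The cause of these shifts was not tested.

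With each library left out in turn, the calls ranged from 14 to 75 for both alleles together, from 6 to 93 for d9-20, from 10 to 33 for d28-30 and from 0 to 4 between the alleles. The highest count for both alleles came without d28-30 replicate 2 and the lowest without wt replicate 3, and the same libraries gave the extremes for d9-20. Fits with fewer libraries have less to test with. Of the 40 genes, 10 passed in all 17 settings (among them Coch, Flnc, Gmnc, Lgi2, Mri1, Nptx2, Pla2g7, Pmaip1 and Tdpx-ps1), 11 passed with each library left out, and 0 changed sign in any setting. In all 40 the mutant and wt libraries did not overlap, so leaving out a library could hardly reverse a sign. Ccno and Slc38a8 rest on few counts (1 to 7 in a mutant library for Ccno, 2 to 5 in a wt library for Slc38a8), and what depth does to their calls was not tested.

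The labels give the replicate numbers no meaning. Deviations from the genotype means of same-numbered libraries correlated at 0.133, 0.269 and 0.494 between d9-20 and wt, at -0.211, 0.196 and 0.243 between d28-30 and wt, and at 0.0951, 0.162 and 0.229 between d9-20 and d28-30. Libraries with different numbers correlated at -0.388 (d9-20 replicate 3 and wt replicate 2) to 0.248 (d28-30 replicate 1 and wt replicate 3). Not every library correlated best with its own number: d9-20 replicate 1 had 0.200 with wt replicate 2. A fit with the replicate number as a block called 69 genes for both alleles, among them all 40, and 55 in d9-20, 48 in d28-30 and 2 between the alleles.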

Other observations

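Further called genes that the naming rule did not cover were looked up after their values were seen. Lgi2, which codes for a secreted leucine-rich protein of the brain, was at 37.3 to 47.6 CPM in mutants and 23.2 to 25.2 CPM in wt (log2 fold change 0.80 ± 0.08, adjusted p = 0.00194). Syt13, coding for a synaptotagmin-like protein, was at 24.3 to 34.6 CPM in mutants and 14.4 to 18.6 CPM in wt (0.84, adjusted p = 0.0160). The semaphorin receptor gene Nrp2 rose by 0.35 ± 0.06 (adjusted p = 0.0449) and the ephrin receptor gene Epha2 by 0.61 (adjusted p = 0.0418). The homeobox genes Irx4 (0.74, adjusted p = 0.0160) and Six2 (0.56, adjusted p = 0.0418) rose as well, as did Sez6l (0.67, adjusted p = 0.0209), Cbs (0.75, adjusted p = 0.0452), Fam101a (0.75, adjusted p = 0.0306), Stum (0.50, adjusted p = 0.0386) and Plekha2 (0.52, adjusted p = 0.0475).

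The pseudogene Tdpx-ps1 was at 27.3 to 33.9 CPM in mutants and 0.553 to 5.14 CPM in wt (3.20 ± 0.38, adjusted p = 0.00612). Its reads may be shared with near-identical copies, so this value is uncertain. R3hdml was at 0.404 to 1.30 CPM in mutants and 0 to 0.103 CPM in wt (3.76 ± 0.52, adjusted p = 0.0138). The X-linked Zcchc18 fell by 0.53 ± 0.09 (adjusted p = 0.0452), and sex was not balanced between the groups. Except for Lgi2 and Tdpx-ps1, each of these calls was lost without at least 1 wt library, with adjusted p up to 0.342 over all settings. Many were lost without most mutant libraries too. Nrp2, Epha2, Six2, Cbs, Fam101a and Stum passed in only 1 fit with a library left out. Sez6l, Plekha2 and Zcchc18 passed in 2 such fits. The calls of all these genes named by number of fits were also lost with a Y-linked covariate.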
